A study of Mus musculus with 12 samples.

Results

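The comparison described here is between EYFP-negative cells of ER71 mutant and of ER71 wild-type mouse embryos at embryonic day 8.0. Its members were taken from the sample titles: 3 arrays labelled ER71 mutant, EYFP negative, and 3 labelled wild type, EYFP negative, which are 6 of the 12 arrays in the study. The other 6 arrays hold the EYFP-positive cells of the same genotypes, 3 per group. ER71 is the older name of Etv2, and EYFP is a yellow fluorescent protein. All groups came from a mixed C57BL/6 and FVB line, were of the same age, and were sorted on a BD FACSAria after trypsin digestion. RNA from every group was extracted with Trizol and amplified in 2 rounds before biotin labelling, so the wild-type cells went through the same handling as the mutant cells. The labels state neither the sequences that drive EYFP, nor the mutant allele, nor whether a group's 3 arrays stand for separate embryos, pools or repeats. P-values and intervals therefore cover only the spread among the arrays, and that spread may be technical.

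Etv2 is an ETS-family transcription factor that is needed for the first endothelial and blood cells, and embryos without it form no vessels or blood. It is expressed for a short time in mesoderm. At this stage the embryo outside the blood and vessel lineages consists of neural ectoderm, emerging neural crest, somites, lateral plate and cardiac mesoderm, gut endoderm and surface ectoderm, with yolk sac tissue around it. The question put to the arrays was whether the genotype altered expression in cells outside the reporter fraction, and how large a change could have been seen in each lineage.

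The values are log2 expression values made with RMA, a method that corrects background, normalises arrays to each other and summarises the probes of a probe set. Each of 18193 genes was represented by the probe set that was brightest on average over the 12 arrays. Array medians lay between 6.98 and 7.06 log2, and the number of arrays limits the precision of every value. The mean over the 6 EYFP-negative arrays was at least 7 log2 for 11533 genes, called bright here, and lower for 6660 dim genes. A dim probe set compresses a change, so dim genes were counted apart. Array-to-array correlations across genes, which are not independent replicates, ran from 0.992 to 0.993 within wild-type negative cells and from 0.987 to 0.989 within mutant negative cells. The second mutant array correlated with its own group at 0.987 and with the wild-type arrays at 0.991 to 0.993. The 3′ minus 5′ signal of actin, a measure of RNA shortening, was 2.26 ± 0.43 log2 (SD, n = 3) in mutants and 2.21 ± 0.82 (SD, n = 3) in wild types (exact two-sided permutation p = 1; the smallest p for 3 against 3 is 0.1). This signal was highest on the first wild-type array (3.14) and the second mutant array (2.72). The other negative arrays read 1.57 to 2.20. For Gapdh the same arrays were highest, at 3.17 and 2.82, beside 1.49 to 2.04. The Gapdh means were 2.00 ± 0.72 in mutants and 2.36 ± 0.70 in wild types (SD, n = 3). Those highest arrays also had the highest correlation between the genotypes, 0.993. The part of RNA shortening in the differences below was not tested.

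The markers given for the EYFP-negative fraction were Sox2, a neural progenitor factor, Pax3, a factor of the dorsal neural tube and somites, Cdh1, the epithelial adhesion protein E-cadherin, and Vcam1, a cell adhesion protein. Mean levels in wild-type negative cells against wild-type positive cells were 12.16 ± 0.21 against 9.71 ± 0.96 log2 for Sox2 (SD, n = 3 in each group here and below). For Pax3 they were 10.09 ± 0.15 against 8.05 ± 0.37, and for Cdh1 10.76 ± 0.27 against 6.23 ± 0.35. The means of these 3 markers lay higher in the negative fraction. Those of Vcam1 did not: they were 7.68 ± 0.12 in wild-type negative cells and 7.61 ± 0.18 in wild-type positive cells, so that Vcam1 does not set the fractions apart in wild types. The endothelial list had a mean level of 7.17 to 7.22 log2 on the wild-type negative arrays and 7.13 to 7.29 on the mutant negative arrays, beside 9.81 to 10.12 in wild-type positive cells. Cdh5, the endothelial cadherin that defines that lineage, lay between 4.71 and 4.93 log2 on all 6 negative arrays, below the arrays' 25th percentiles of 5.62 to 5.69.

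Etv2 itself read 7.49, 7.43 and 7.24 log2 on the mutant negative arrays and 7.58, 7.50 and 7.85 on the wild-type ones. The mutant values all lay below the wild-type values, and the difference was -0.26 ± 0.17 (SE; limma adjusted p = 0.94). Wild-type positive cells had a mean of 10.93 and mutant positive cells one of 7.31, a difference of -3.61 ± 0.17 (SE, limma adjusted p = 1.65e-07). The wild-type negative mean, 7.64, already lay near that of mutant positive cells. The deleted part of the gene is not stated, so in negative cells this probe set may show little about the allele.

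The negative arrays carried unequal amounts of globin RNA. Hbb-y, an embryonic beta-like globin of primitive red cells, read 5.01, 11.55 and 4.71 log2 in mutants and 10.80, 5.59 and 11.94 in wild types. Hbb-bh1, the other embryonic beta-like globin, read 6.34, 10.51 and 6.10 in mutants and 10.05, 6.70 and 11.87 in wild types. Both genes were thus high on the second mutant array and on wild-type arrays 1 and 3, and the genotypes overlapped. The Hbb-y difference was -2.35 ± 1.77 (SE), with a 95% interval of -6.24 to 1.53. The summed linear signal of the 18 measured primitive erythroid genes ranged from 7110 to 12238 in mutants and from 7496 to 15318 in wild types. Eif2s3y, a Y-linked gene, read 11.23 on the first wild-type array and 4.23 to 4.53 on the other 5, where Xist, expressed from an inactive X chromosome, read 13.57 to 13.98. On the first wild-type array Xist read 8.19. The part of globin, sex or cell mixture in the differences below was not tested, and in sorted bulk samples fewer cells of a type and less RNA per cell cannot be told apart.

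**Figure D1:**
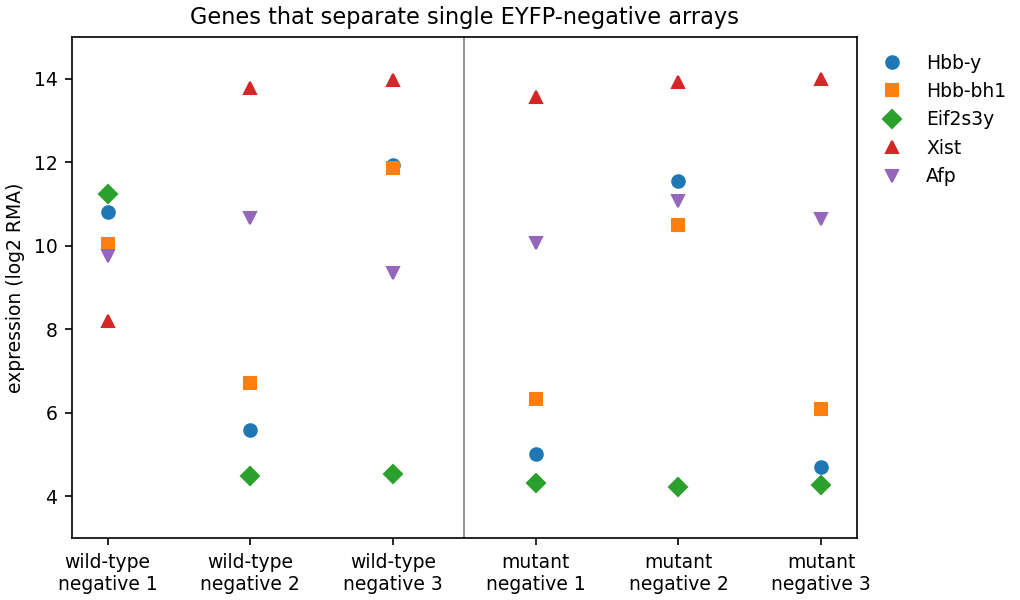
Expression (log2 RMA, y axis) of Hbb-y, Hbb-bh1, Eif2s3y, Xist and Afp on each of the 6 EYFP-negative arrays (x axis, 1 point per gene and array). The globins are high on the second mutant array (Hbb-y 11.55) and on wild-type arrays 1 and 3 (10.80 and 11.94), and Eif2s3y is high on the first wild-type array alone (11.23).

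No gene passed the threshold between the genotypes in EYFP-negative cells. With limma, 0 of 18193 genes (0%) had a Benjamini-Hochberg adjusted p under 0.05, and the smallest adjusted p was 0.326, for Runx1t1. At an unadjusted p under 0.05 there were 949 genes (5.22%), of which 566 were higher in mutants (3.11% of all genes) and 383 lower (2.11%). The count was 0 in 21 of 22 other fits of the same values. The exception left out the second mutant array, where 2 genes passed, Ripply2 and H2-Bl, and where 1716 genes (9.43%) had an unadjusted p under 0.05. The 3 mutant arrays all lay above the 3 wild-type arrays for 1310 genes (7.2%) and all below for 729 (4.01%). Differences were small: their median size was 0.11 log2, 32 genes differed by 2-fold or more, 22 of them bright, and the median of all differences was 0.03. Of all differences, 10517 lay above zero and 7676 below. In EYFP-positive cells the same model called 769 genes higher (4.23%) and 681 lower (3.74%) in mutants, and 760 genes differed by 2-fold or more.

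The precision of the arrays was read from each gene's 95% interval in the model. The bound of a gene is used below for the largest size of difference, in either direction, that lies inside that interval. Over the 11533 bright genes the median bound was 0.51 log2, a 1.42-fold change, and the 90th percentile was 0.89, or 1.86-fold. The whole interval lay within 2-fold for 10791 bright genes (93.6%), within 1.5-fold for 7201 and within 4-fold for 11503. With intervals widened to hold over all genes at once (Bonferroni), the share within 2-fold was 10.5%. When only the 6 negative arrays entered the fit, 10952 bright genes (95%) lay within 2-fold. Of the 1172 bright genes that passed the threshold in positive cells, 1070 (91.3%) had an interval within 2-fold in negative cells. The intervals below each cover 1 gene at 95%, with no allowance for the number of genes. A bright gene changing alone would have needed a median difference of 1.44 log2 (2.71-fold) to pass the threshold over all genes, and 2.40 log2 at the 90th percentile. Over bright members of the lineage lists described below, this median ran from 1.47 log2 for primitive erythroid genes to 2.85 for sarcomere genes. It was 2.43 for neural ectoderm and 2.10 for lateral plate genes. An observed difference below a gene's own needed difference gives no call, so the lack of a call alone bounds no change. For many genes this needed difference exceeded 1.44 log2. How large a change a gene's own values leave is read from its interval.

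The 13 lineage lists were chosen with earlier results of these data known, so none was tested as a set. Shares over all genes stand beside their counts for comparison only. Genes of these lists had wider bounds than all bright genes together. Of their 180 bright members, each counted once, 121 (67.2%) had an interval within 2-fold in the 12-array fit and 140 (77.8%) on the 6 negative arrays, beside 93.6% and 95% of all bright genes. The median bound over these members was 0.72 log2 and 0.70 log2 in the respective fits. The bound at least halved without the positive arrays for 5 members: Sox1, Sox2, Fgf10, Afp and Ttr. Afp, the fetal albumin-like protein of visceral endoderm, had an interval of -2.66 to 4.01 in the 12-array fit and of -0.17 to 1.52 on the negative arrays. For Sox2 the SD was 1.31 in mutant positive and 0.96 in wild-type positive cells, beside 0.07 and 0.21 in the corresponding negative cells. Intervals below are from the 12-array fit unless the negative arrays are named, and the second interval is given beside the first for genes where the fits differ on whether zero lies inside, among others.

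**Figure D2:**
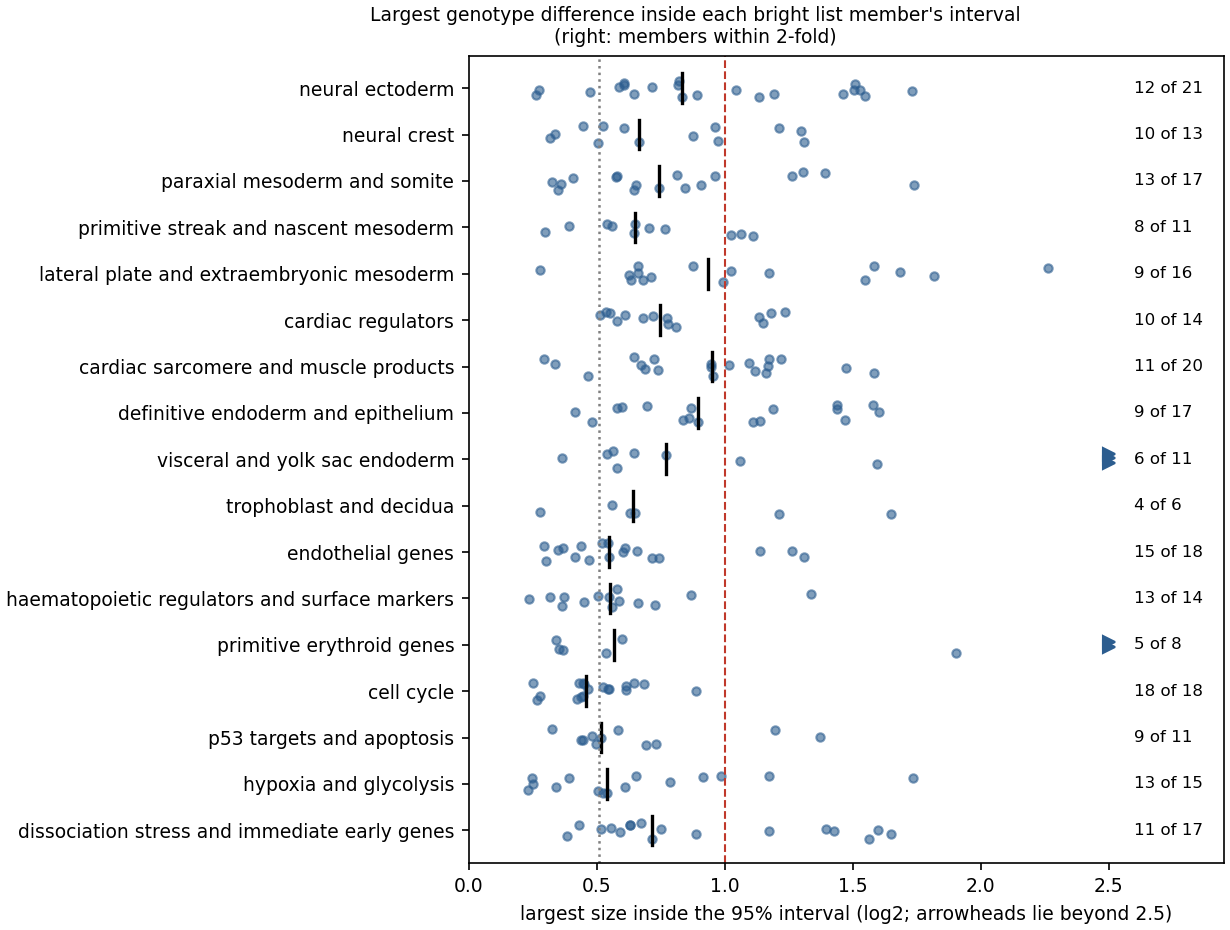
Largest size of genotype difference inside the 95% interval (log2, x axis) for each bright member of 17 gene lists (y axis, 1 point per gene; black bar, list median; red dashed line, 2-fold; grey dotted line, median of all bright genes). All 18 cell cycle genes lie within 2-fold, beside 12 of 21 neural ectoderm and 9 of 16 lateral plate genes.

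Neural ectoderm genes gave no call. Of 24 measured members 15 were above zero, beside 10517 of 18193 genes, and 9 below. The median difference was 0.17 log2 beside 0.03 for all genes. An unadjusted p under 0.05 was found for 1 member, beside 5.22% of all genes. Sox2 read 12.35, 12.49 and 12.42 log2 in mutants and 12.39, 12.10 and 11.98 in wild types. The values overlapped through the first wild-type array. The difference was 0.26 ± 0.57 (SE), with an interval of -0.98 to 1.51 in the 12-array fit and of -0.04 to 0.57 on the negative arrays. Sox1, an early neural plate factor, differed by 0.21, with intervals of -1.11 to 1.53 and -0.21 to 0.63. Pax6, a regulator of forebrain, eye and spinal cord, read 9.50, 9.18 and 9.32 in mutants and 9.29, 8.66 and 8.85 in wild types, a difference of 0.40 ± 0.23 (interval -0.10 to 0.89). Otx2, which patterns the forebrain and midbrain, differed by 0.36 (interval -0.84 to 1.55, and -0.18 to 0.89 on the negative arrays).

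Hesx1, a factor of the anterior forebrain, was the neural member with the unadjusted p. Its mutant values were 8.54, 7.64 and 8.16 and its wild-type values 7.03, 7.82 and 6.89, which overlap, and the difference was 0.87 ± 0.39 (SE; adjusted p = 0.929). Zic1, a zinc finger factor of the dorsal neural tube and somites, was the only member of the list whose arrays did not overlap. It read 9.52, 9.73 and 9.64 in mutants and 10.40, 9.75 and 10.59 in wild types, a difference of -0.62 ± 0.40. Its interval was -1.50 to 0.27, and -1.11 to -0.13 on the negative arrays. Intervals of 12 of the 21 bright neural members lay within 2-fold, and 16 did so on the negative arrays.

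Neural crest genes were split evenly, 7 above and 7 below zero of 14, with a median of 0.02 log2. The sign of that median changed with the library left out: it was 0.12 without the second and -0.11 without the third wild-type negative array. Foxd3, a crest specifier, differed by 0.05 (interval -0.22 to 0.32), and Sox10, the factor of migrating crest, by -0.01 (interval -0.52 to 0.51). Tfap2a, which specifies crest and surface ectoderm, read 10.24, 10.39 and 10.28 in mutants and 9.89, 9.99 and 9.44 in wild types, a difference of 0.53 ± 0.35 (interval -0.24 to 1.30). Its arrays did not overlap, and the interval on the negative arrays, 0.16 to 0.89, lay above zero. Snai2, a repressor of epithelial genes, differed by -0.63 ± 0.26 (interval -1.21 to -0.06, and -1.32 to 0.06 on the negative arrays), and Twist1, a factor of cranial mesenchyme, by -0.56 ± 0.18. Both had an unadjusted p under 0.05, beside 2.11% of all genes lower at that threshold. The Twist1 values of 10.12, 9.75 and 9.92 in mutants overlapped those of 10.10, 10.53 and 10.85 in wild types.

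Somite and presomitic genes had a median difference of 0.03 log2 over 19 members, 10 above and 9 below zero. Pax3 read 10.12, 10.45 and 10.59 in mutants and 10.24, 9.94 and 10.07 in wild types, a difference of 0.30 ± 0.20 (interval -0.14 to 0.74). Meox1, a somite homeobox factor, differed by 0.26 (interval -0.44 to 0.96), and Tbx6, which directs presomitic mesoderm, by 0.08 (interval -0.42 to 0.58). These 3 intervals lay within 2-fold in the 12-array fit, while on the negative arrays that of Meox1 just passed it, at -0.48 to 1.003. Of the 17 bright members, 13 had an interval within 2-fold in the 12-array fit and 11 on the negative arrays. At an unadjusted p under 0.05, 3 of the 19 members passed, all higher in mutants, beside 3.11% of all genes. Hes7, an oscillating repressor of the segmentation clock, differed by 0.44 ± 0.17 (interval 0.07 to 0.81, and -0.04 to 0.92 on the negative arrays). Dll3, a Notch ligand of the presomitic mesoderm, differed by 0.72 ± 0.27, and Ripply2, which ends segmentation gene activity at the somite border, by 1.51 ± 0.32.

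Ripply2 was dim, at 6.64, 5.33 and 6.75 log2 in mutants and 4.53, 5.14 and 4.54 in wild types. The groups did not overlap, but the second mutant array lay nearer to the wild-type arrays than to the other mutant arrays. Without that array the difference was 1.96 ± 0.21 (adjusted p = 0.0179), and with it the adjusted p was 0.884. H2-Bl, the other gene that passed without the second mutant array, was chosen after its values were seen. It read 7.14, 5.45 and 6.92 in mutants and 5.57, 5.78 and 5.36 in wild types, a difference of 0.93 with all arrays and of 1.46 ± 0.14 without the second mutant array (adjusted p = 0.0129).

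Primitive streak and nascent mesoderm genes had 15 of 19 members above zero, beside 10517 of 18193 genes, with a median of 0.15 log2. Evx1, a homeobox factor of the posterior streak, read 10.03, 10.36 and 10.23 in mutants and 9.65, 9.81 and 9.20 in wild types. Its arrays did not overlap and the difference was 0.65 ± 0.17 (interval 0.28 to 1.02; adjusted p = 0.909). Pdgfra, a receptor of mesoderm for platelet-derived growth factor, read 12.00, 11.79 and 11.88 in mutants and 11.70, 11.77 and 12.22 in wild types. The groups overlapped, and the difference of -0.01 ± 0.18 had an interval of -0.39 to 0.38.

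Lateral plate and extraembryonic mesoderm genes lay lower in mutants for 15 of 19 members, beside 7676 of 18193 genes, with a median of -0.28 log2. Of the 19 members, 6 had an unadjusted p under 0.05, all lower, beside 2.11% of all genes, and none passed the adjusted threshold. The list was chosen with earlier results known, so that count was not tested against the share. The mean level of the list was 8.35 to 8.57 log2 on the mutant arrays and 8.62 to 8.88 on the wild-type arrays. Vcam1 read 6.43, 6.23 and 6.82 in mutants and 7.55, 7.80 and 7.68 in wild types, with no overlap, and differed by -1.18 ± 0.23 (interval -1.68 to -0.68; adjusted p = 0.884). The mutant mean was in the dim range, and other Vcam1 probe sets differed by -0.21 and 0.03. With the mean of all its probe sets Vcam1 differed by -0.45. Prrx1, a homeobox factor of lateral plate and limb mesenchyme, read 9.10, 9.52 and 8.94 in mutants and 10.09, 9.87 and 9.89 in wild types. It did not overlap either, and differed by -0.76 ± 0.19, or by -0.42 with the mean of its probe sets. Foxf1, a forkhead factor of splanchnic mesoderm, read 8.55, 8.96 and 8.52 in mutants and 9.02, 9.31 and 9.54 in wild types, a difference of -0.62 ± 0.17. Tcf21, a factor of splanchnic and epicardial mesoderm, differed by -0.82 ± 0.33 (interval -1.55 to -0.09, and -1.70 to 0.06 on the negative arrays), Col3a1, a fibrillar collagen, by -0.99, and Tbx20, a T-box factor of heart and lateral mesoderm, by -0.99 ± 0.27.

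Other members of the lateral plate list ranged from tightly to poorly bounded. Hand1, a factor of extraembryonic and lateral mesoderm, read 8.63, 8.58 and 8.55 in mutants and 8.62, 8.43 and 8.49 in wild types, and its interval of -0.13 to 0.28 was the narrowest of the list. Hand2, its relative in heart and limb, differed by -0.28 ± 0.16 (interval -0.62 to 0.06). Bmp4, a growth factor of extraembryonic and ventral mesoderm, differed by -0.21 ± 0.20 (interval -0.66 to 0.24). Postn, a matrix protein of mesenchyme, had the widest interval of the list, -0.35 to 2.26, around a difference of 0.96. Intervals of 9 of the 16 bright members lay within 2-fold, and of 7 on the negative arrays.

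Cardiac regulators lay lower in mutants for 15 of 18 members, beside 7676 of 18193 genes, with a median of -0.22 log2. Of the 18 members, 3 had an unadjusted p under 0.05, all lower, beside 2.11% of all genes. Gata6, a zinc finger factor of heart and endoderm, read 9.39, 9.43 and 9.29 in mutants and 9.68, 10.03 and 9.99 in wild types. All mutant values lay below all wild-type values, and the difference was -0.53 ± 0.11 (interval -0.77 to -0.28; adjusted p = 0.884). Other Gata6 probe sets differed by -0.50 and by 0.00 to 2 decimals, and the mean of its probe sets by -0.34. Mef2c, a muscle and heart field factor, read 9.17, 8.95 and 9.29 in mutants and 9.70 to 10.06 in wild types, a difference of -0.78 ± 0.18. Zfpm2, a GATA cofactor, was dim, did not overlap and differed by -1.18 ± 0.26, while its other probe set differed by 0.17 and the mean of both by -0.50.

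Of the 14 bright cardiac regulators, 10 had an interval within 2-fold, and 12 on the negative arrays. Myocd, a coactivator of heart and smooth muscle genes, had the widest: it differed by -0.42 ± 0.37 (interval -1.24 to 0.40, and -0.85 to 0.01 on the negative arrays). Gata4, a partner of Gata6, differed by -0.22 (interval -0.72 to 0.28), and Nkx2-5, the early cardiac homeobox factor, by -0.08 (interval -0.61 to 0.45). Tbx5, a factor of the first heart field, read 9.08, 9.08 and 9.04 in mutants and 8.81, 9.44 and 9.46 in wild types, a difference of -0.17 (interval -0.51 to 0.17). Isl1, a factor of the second heart field, differed by -0.38 (interval -0.78 to 0.02, and -0.72 to -0.03 on the negative arrays). The first wild-type array was the lowest of its group for Tbx5 and Gata6. The sarcomere list had a median of -0.14 log2, and of 0.08 without the second mutant array. Of its 25 members 20 lay below zero, beside 7676 of 18193 genes. Tnnt2, cardiac troponin T, read 11.19, 10.20 and 10.95 in mutants and 10.71, 11.26 and 10.83 in wild types. Its groups overlapped, and the interval was -0.95 to 0.64. Members with an unadjusted p under 0.05 ran in both directions: the myosin light chain Myl2 at 0.75 ± 0.33, phospholamban (Pln) at 0.28 ± 0.10 and the muscle LIM protein gene Csrp3 at -0.87 ± 0.33. The shares over all genes were 3.11% higher and 2.11% lower.

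**Figure D3:**
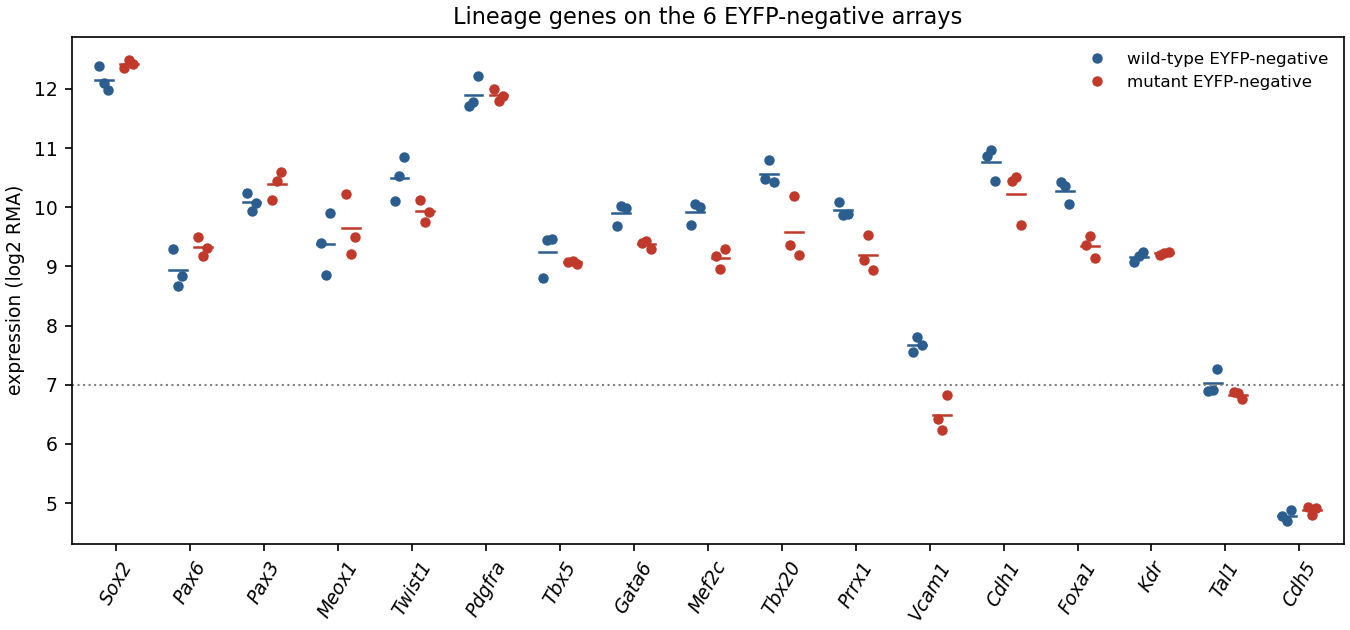
Expression (log2 RMA, y axis) of 17 lineage genes (x axis) on the 3 wild-type (blue) and 3 mutant (red) EYFP-negative arrays; each point is an array, each bar a group mean, and the dotted line marks 7 log2. The groups do not overlap for Gata6, Mef2c, Tbx20, Prrx1, Vcam1 and Foxa1, with mutants lower, and no gene passed the adjusted threshold. The genes drawn are a selection: Tfap2a and Evx1, which did not overlap and were higher in mutants, are left out. Over all genes, the mutant arrays all lay above the wild-type arrays for 7.2% and all below for 4.01%.

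Epithelial and endodermal genes had a median of -0.08 log2, with 13 of 20 members below zero, beside 7676 of 18193 genes. Cdh1 read 10.44, 10.51 and 9.70 in mutants and 10.86, 10.96 and 10.45 in wild types, which overlap, and differed by -0.54 ± 0.47. Its interval was -1.58 to 0.50, and -1.09 to 0.01 on the negative arrays. Epcam, an epithelial surface protein, did not overlap (11.10, 10.95 and 10.29 against 11.40, 11.23 and 11.27) and differed by -0.52. Its interval was -1.44 to 0.40, and -0.995 to -0.044 on the negative arrays. Foxa1, a pioneer factor of endoderm, read 9.36, 9.51 and 9.14 in mutants and 10.43, 10.35 and 10.05 in wild types. Of the 20 members it was the only 1 with an unadjusted p under 0.05, beside 5.22% of all genes. Foxa1 did not overlap, and differed by -0.94 ± 0.23 (interval -1.44 to -0.45, limma adjusted p = 0.894). Foxa2, its relative in node, floor plate and endoderm, differed by -0.26 (interval -1.19 to 0.67, and -0.70 to 0.19 on the negative arrays). Shh, the ligand of notochord and floor plate, differed by -0.54 ± 0.48 with no overlap, and its interval was -1.60 to 0.52, or -0.90 to -0.19 on the negative arrays. On those arrays alone the limma adjusted p was 0.838 for Epcam and 0.762 for Shh.

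Tissue outside the embryo proper was measured by its own lists. All 19 visceral and yolk sac endoderm genes had a difference above zero, beside 10517 of 18193 genes, with a median of 0.27 log2. However, 0 had an unadjusted p under 0.05, and 6 of the 11 bright members had an interval within 2-fold. In this list 4 of 19 members did not overlap, all higher in mutants, beside 7.2% of all genes. The list's mean level was 7.52 to 7.63 log2 on mutant and 7.15 to 7.48 on wild-type negative arrays, which do not overlap. Its summed linear signal, set by the most abundant members, was 8225 to 9211 and 5473 to 8968, which overlap. Afp read 10.07, 11.06 and 10.65 in mutants and 9.74, 10.67 and 9.34 in wild types. Trophoblast and decidua genes had a median of 0.09 over 12 members, and Ascl2, a trophoblast and streak factor, differed by 0.45 ± 0.12 with no overlap (7.35, 7.14 and 6.98 against 6.67, 6.83 and 6.63; adjusted p = 0.909).

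Endothelial and blood genes gave no call in the negative fraction, and many were dim. Of 38 endothelial genes 20 were dim, the median difference was 0.02 log2, and 15 of the 18 bright ones had an interval within 2-fold. Of the 38, 1 had an unadjusted p under 0.05, beside 5.22% of all genes. Kdr, a receptor for vascular endothelial growth factor that early mesoderm also carries, read 9.19, 9.23 and 9.24 in mutants and 9.08, 9.17 and 9.24 in wild types. These values differed by 0.06 ± 0.16 (interval -0.30 to 0.42). Tek, the angiopoietin receptor Tie2, was the member with the unadjusted p, at 7.75, 7.80 and 7.31 in mutants and 6.82, 7.41 and 6.66 in wild types, which overlap. Its difference was 0.66 ± 0.28 (interval 0.05 to 1.26; adjusted p = 0.929). The 21 haematopoietic regulators had a median of -0.01, none had an unadjusted p under 0.05, and 13 of 14 bright members had an interval within 2-fold. Tal1, the basic helix-loop-helix factor of blood formation, was dim and differed by -0.19 ± 0.18. The 18 primitive erythroid genes had a median of -0.06, and 10 of them were dim.

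**Figure D4:**
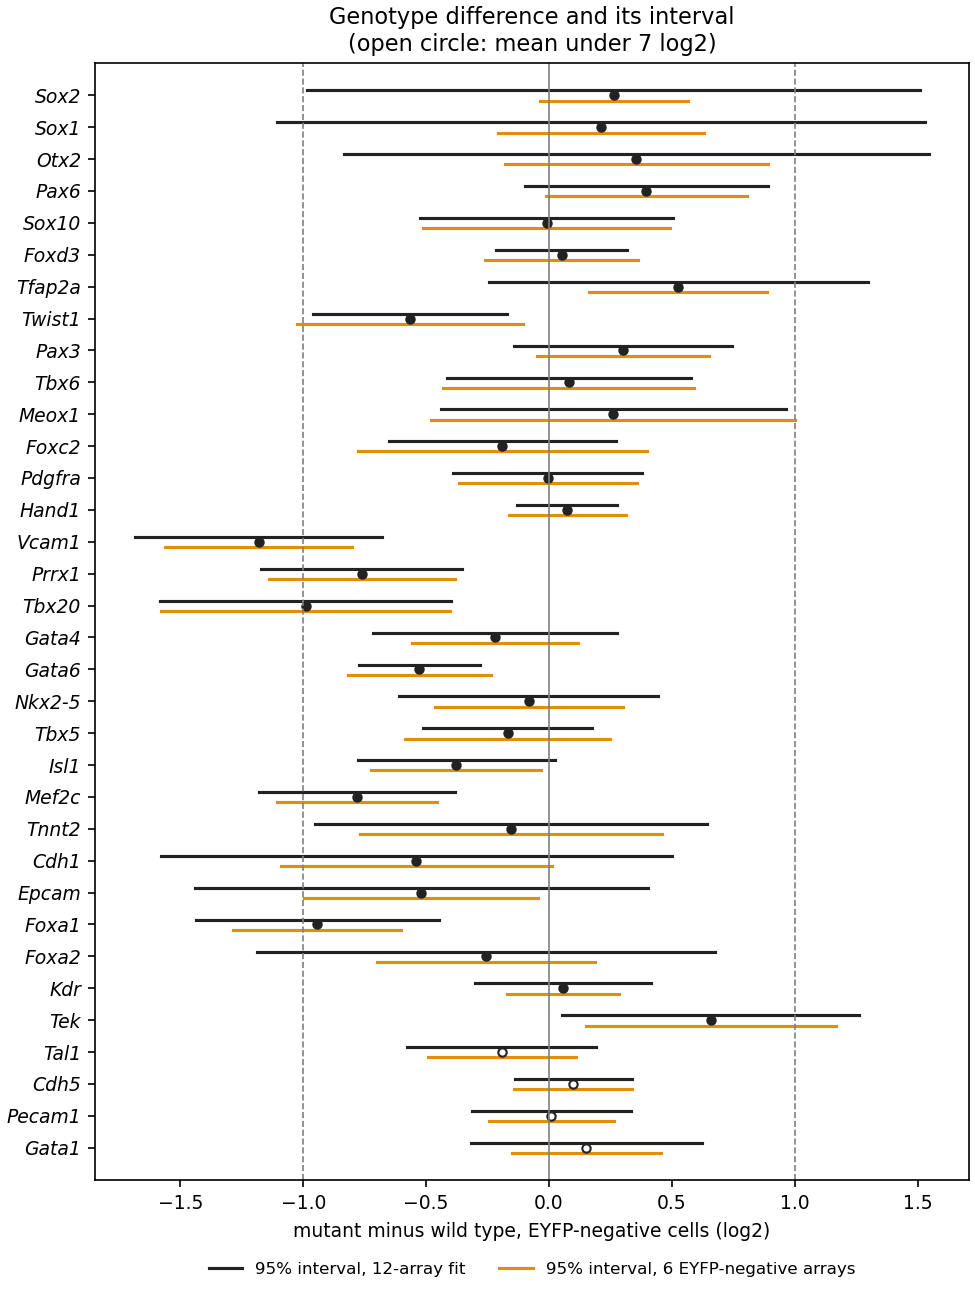
Mutant minus wild-type difference in EYFP-negative cells (log2, x axis) for 34 lineage genes (y axis), with 95% intervals from the 12-array fit (black) and from the 6 EYFP-negative arrays (orange); dashed lines mark 2-fold and open circles dim genes. The interval of Hand1 (-0.13 to 0.28) is narrow, and that of Sox2 narrows from -0.98 to 1.51 to -0.04 to 0.57 without the positive arrays. In the 12-array fit those of Vcam1, Prrx1, Tbx20, Gata6, Mef2c, Twist1 and Foxa1 lie below zero, and that of Tek (0.05 to 1.26) lies above it.

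Lists on the state of the cells gave 0 adjusted calls. All 18 cell cycle genes had an interval within 2-fold, with a median difference of 0.10 log2. Ccna2, cyclin A2, read 11.55, 11.48 and 11.59 in mutants and 11.64, 11.45 and 11.43 in wild types (interval -0.18 to 0.25). Targets of p53 and apoptosis genes had a median of -0.06, with 9 of 11 bright members within 2-fold. Hypoxia and glycolysis genes lay above zero for 13 of 16, with a median of 0.11, beside 10517 of 18193 genes, and 4 of them did not overlap, all higher, beside 7.2% of all genes. Among these was Ankrd37, a target of hypoxia-inducible factors, at 9.87, 9.62 and 9.37 in mutants and 8.27, 9.18 and 8.88 in wild types (difference 0.84 ± 0.41; interval -0.05 to 1.74, and 0.29 to 1.39 on the negative arrays). Dissociation stress and immediate early genes had a median of -0.05, and 6 of 20 had an unadjusted p under 0.05: 4 were lower, including Klf4 at -0.89 ± 0.34 and the phosphatase gene Dusp1 at -0.33 ± 0.12, and 2 were higher, including Ier3 at 0.85 ± 0.33. The shares over all genes were 2.11% lower and 3.11% higher.

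Outside the lists, the genes with the smallest unadjusted p among those without overlap were described by the same values. Runx1t1, a corepressor of the ETO family, read 8.97, 9.15 and 9.27 in mutants and 9.87, 10.24 and 10.13 in wild types. This was the smallest p of the comparison (unadjusted p = 1.79e-05 with limma), at a difference of -0.95 ± 0.13 (interval -1.25 to -0.66). All of its other 5 probe sets differed in the same direction, by -1.41 to -0.12. Nr2f1, an orphan nuclear receptor of the neural tube and mesenchyme, read 10.58, 11.10 and 11.09 in mutants and 11.90, 11.76 and 11.81 in wild types, a difference of -0.90 ± 0.19. Tmem158, a membrane protein gene, differed by -0.71 ± 0.14. On the higher side, Stmn2, a neuronal microtubule regulator, read 8.72, 8.72 and 8.41 in mutants and 7.55, 7.86 and 7.91 in wild types, a difference of 0.84 ± 0.15. Dusp4, a phosphatase of MAP kinases, differed by 0.52 ± 0.10, and Ddn, which encodes dendrin, by 0.94 ± 0.19. Ppm1e, a protein phosphatase, and Grhl3, a surface ectoderm factor, were dim and differed by 0.97 ± 0.19 and 0.55 ± 0.11. Apart from Runx1t1, the adjusted p of each of these genes was 0.884.

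Whether the genotype difference in negative cells was unlike that in positive cells was tested directly, as the difference in EYFP-negative minus that in EYFP-positive cells. With limma, 292 genes were higher by this measure (1.61%) and 177 lower (0.973%) at an adjusted p under 0.05, 469 in all. Of these, 457 also passed in positive cells and 0 passed in negative cells. Their median size of difference was 1.43 log2 in positive and 0.16 in negative cells. Within a genotype, same-numbered negative and positive arrays deviated together, and with that pair as a random block the count was 842 in place of 469. Without the second wild-type negative array it was 299.

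Many endothelial and blood genes passed as lower in mutant positive cells, and none passed in negative cells. Since the lists were chosen with earlier results known, their counts below were not tested against the shares. Of 38 endothelial genes 28 were higher by the test of the difference, beside 1.61% of all genes, and 34 had passed as lower in positive cells. Cdh5 differed by 5.34 between the fractions, from -5.24 in positive and 0.10 in negative cells (adjusted p = 1.34e-08), and by 2.84 with the mean of its probe sets. Tal1 differed by 4.50 and Etv2 by 3.36. Tek differed by 2.42, from -1.76 in positive and 0.66 in negative cells (adjusted p = 0.00589). Gata1, the master factor of red cells, differed by 1.75, and Ank1, which encodes the red cell membrane protein ankyrin, by 1.09, a call lost with the mean of its probe sets (0.39). Hey1, a Notch target of arteries, differed by 0.85 (adjusted p = 0.0362), and lost the call under 11 of 20 other settings. Of the primitive erythroid list 9 of 18 were higher by this measure, and of the haematopoietic list 6 of 21. The globins Hbb-y and Hbb-bh1, with negative-cell differences of -2.35 and -1.89 and wide intervals, did not pass this test (adjusted p = 0.213 and 0.0892).

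Many lateral plate and cardiac genes differed between the fractions in the other direction. Of the lateral plate list 11 of 19 were lower by the test of the difference, beside 0.973% of all genes, and 11 had passed as higher in positive cells, where the list median was 1.13 log2 against -0.28 in negative cells. Of 18 cardiac regulators 8 were lower, with list medians of 1.15 and -0.22, and of 25 sarcomere genes 8, with medians of 1.59 and -0.14. Vcam1 differed by -2.79 ± 0.32 (adjusted p = 6.27e-04), from 1.61 in positive and -1.18 in negative cells. Its other probe sets gave -0.46 and -0.04, and the mean of all its probe sets -1.10. Prrx1 differed by -2.23, from 1.47 and -0.76, and Gata6 by -1.72, from 1.19 and -0.53. Twist1 differed by -1.81, from 1.25 and -0.56, and Runx1t1 by -1.79, from 0.84 and -0.95. For these 5 genes the estimates had opposite signs, and the unadjusted interval excluded zero in negative cells. Of the 469 genes 53 had this pattern, which picking genes by the difference between the fractions favours, so no conclusion is drawn from that count. Pdgfra differed by -1.93, from 1.93 and -0.01, with an interval of -0.39 to 0.38 in negative cells. Gata4 differed by -1.70, Tbx5 by -1.52 and Tbx20 by -1.82. Averaged over each gene's probe sets, the values were -1.25 for Prrx1, -0.87 for Gata4 and -0.83 for Tbx5, and all 3 kept their call. The Gata4 call was lost without wild-type negative array 2 (adjusted p = 0.0528), and the Tbx20 call under 10 of 20 other settings.

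Other lists of the embryo proper had fewer such genes. Of the 20 epithelial and endodermal genes, 2 were higher, beside 1.61% of all genes, and 1 was lower. Neural ectoderm had 2 of 24, Zic1 and Irx3, and neural crest 2 of 14, Twist1 and Msx2, all lower, beside 0.973% of all genes. The primitive streak list had 1 of 19, Pdgfra, and the somite list 0 of 19. Sox2 differed by 1.76 between the fractions with an adjusted p of 0.407, so its genotype difference was not shown to be unlike that in positive cells.

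**Figure D5:**
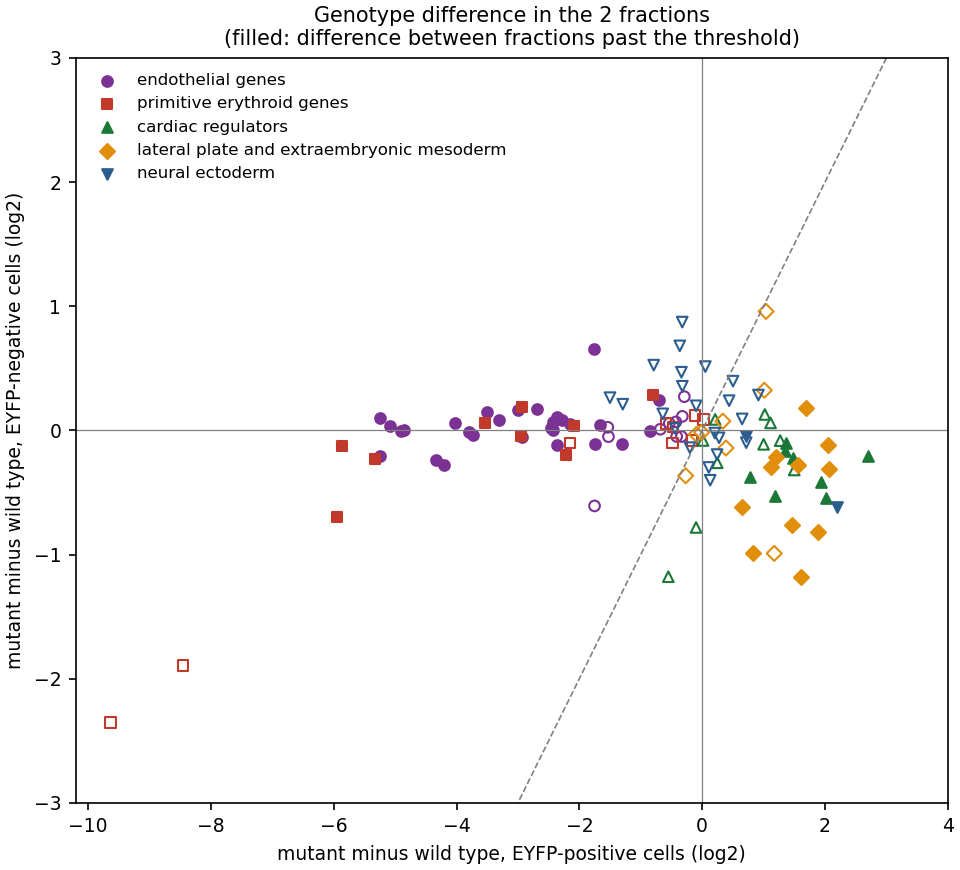
Mutant minus wild-type difference in EYFP-negative cells (log2, y axis) against that in EYFP-positive cells (log2, x axis) for members of 5 gene lists (symbols; filled where the difference between the fractions passed the threshold; dashed line, equal differences). Endothelial genes spread from about -5.24 (Cdh5) towards zero along x and stay near zero on y, while many lateral plate and cardiac genes lie to the right of zero and below it, such as Vcam1 at 1.61 and -1.18.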

How the data were processed

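The authors deposited log2 expression per probe set, and these values were analysed without further normalization. Per the submitters' processing notes they come from RMA. Its version: not given in the sources used here. Of 45101 probe sets, 64 array controls were left out, 34945 had 1 gene symbol in the platform table, 932 had several and 9160 were not listed. RefSeq gene names (GRCm38.p6) matched 34741 of them. Each of 18193 genes was read from its brightest probe set by mean over the 12 arrays, and 9010 genes had more than 1. Dim probe sets stayed in the test.

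Groups came from the sample titles. Differences were fitted with limma 3.58.1 in R 4.3.3 in 1 model of the 4 groups (8 residual degrees of freedom, 11.3 with the prior), two-sided, with Benjamini-Hochberg adjustment over all genes and a threshold of 0.05. Errors are moderated standard errors (SE) for differences and standard deviations (SD) for means. Intervals are moderated 95% intervals of single genes. The fit on the 6 EYFP-negative arrays had 4 residual degrees of freedom. The steps were tested on simulated data.

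Genes named are fixed lineage genes, the 5 with the smallest unadjusted p in each direction among those whose arrays did not overlap, up to 3 per list by unadjusted p, and in each list the members with the narrowest and widest bound. Others named as list members or as singled out fall outside this rule. Members and lists were chosen with earlier results of these data known. Some genes sit in more than 1 list.

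Across genotypes, deviations of same-numbered negative arrays from their group means correlated at -0.244, -0.132 and -0.00287 over genes, so the numbers do not pair the genotypes. Same-numbered negative and positive arrays of a genotype correlated at 0.554, 0.403 and 0.413 in mutants and 0.190, 0.102 and 0.202 in wild types. A pairing is thus read from the values only, since the labels do not state it. The main fit took all arrays as independent, and this pairing entered only the fit with a random block.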

Additional observations from a re-analysis of the deposited data

Results flagged for a closer look

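The genotype difference was tested between the sorted fractions, as EYFP-negative minus EYFP-positive, and it differed for 469 genes (limma, adjusted p under 0.05). Of these, 323 had estimates of opposite sign. Picking genes by this difference favours opposite signs, so no conclusion is drawn from that count. Among the named genes, the negative-cell minus the positive-cell difference was above zero for Cdh5 at 5.34 log2, Tal1 at 4.50, Etv2 at 3.36, Tek at 2.42, Gata1 at 1.75, Ppm1e at 1.14, Ank1 at 1.09 and Hey1 at 0.85. For Cdh5 the genotype difference was -5.24 in positive and 0.10 in negative cells. The same measure was below zero for Vcam1 at -2.79, Tnnt2 at -2.38, Myocd at -2.36, Prrx1 at -2.23, Pdgfra at -1.93, Tbx20 at -1.82, Twist1 at -1.81, Runx1t1 at -1.79, Gata6 at -1.72, Gata4 at -1.70, Tbx5 at -1.52, Isl1 at -1.16 and Tmem158 at -0.94. The Ppm1e and Tmem158 differences come with no called change in either fraction, with differences of 0.97 and -0.71 in negative cells beside -0.16 and 0.23 in EYFP-positive ones. Vcam1 is the named gene for which this measure lay furthest below zero, and its other probe sets gave differences between the fractions of -0.46 and -0.04. The call was lost under 1 or more of the settings tried for Ank1, Gata4, Hey1, Isl1, Myocd, Ppm1e, Tbx20, Tmem158 and Tnnt2.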

How the results depend on the processing

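The negative-cell comparison gave 0 called genes in 21 of 22 other fits and at an adjusted p under 0.1, the exception being without mutant negative array 2; leaving out single arrays gave 0 to 2. With the replicate number as a block, although the numbers were not read as pairing the genotypes, 0 genes passed (smallest adjusted p = 0.161, limma), 1116 had an unadjusted p under 0.05 and 501 differed between the fractions. With genotype and number as a random block, 842 genes differed between the fractions, and leaving out single arrays gave 299 (without wild-type negative 2) to 486. The share of bright genes within 2-fold, 93.6%, ran from 87.6 to 93.9 without single arrays, and was 10.5% with intervals adjusted for the number of genes by Bonferroni. Without both wild-type arrays numbered 1, of which the negative one alone carried Y-linked signal among negative arrays, the values were 0 genes, 90.4% and 337 genes. With every probe set on its own 599 differed between the fractions. Differences of Vcam1 ran from -1.35 to -0.45 over the settings, of Gata6 from -0.64 to -0.34, of Prrx1 from -0.93 to -0.42 and of Runx1t1 from -1.05 to -0.75. With the mean of all probe sets in place of the brightest, 20 named genes moved by more than their SD. Of 21 named genes that differed between the fractions, 12 kept that call under all settings tried, and the most often lost were Ppm1e, under 12, and Hey1, Isl1 and Myocd, under 11 each. The number of arrays, 3 per group, limits every interval.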
